A study of Mus musculus with 12 samples.

Results

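The 36 genes described here encode the proteins that bring glucose into the cell, break it down to pyruvate and decide whether pyruvate becomes lactate or enters the mitochondrion. They were chosen by name, as rows of a deposited table that sets the heart tube (HT) against the pSHF, the posterior second heart field, and all 36 were found among the 21563 genes of that table. Poly-A RNA had been sequenced from both tissues of wild-type (genotype WT) embryos of the outbred mouse strain CD1 at E10.0, with 6 HT and 6 pSHF libraries. No transgene, deletion or treatment is named for either tissue. The HT holds the beating heart muscle of the embryo, and the pSHF is the mesoderm behind it, from which atrial and septal cells are added to the heart. Both tissues were dissected from one embryo, per the labels' protocols, but the library codes used below carry no replicate number and the labels do not say whether embryos were pooled, so the p-values given here cover the spread from library to library, which may be technical.

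Glycolysis splits glucose in the cytosol into pyruvate and yields a little ATP without oxygen. Most of its steps can be run by several isozymes, which are encoded by separate genes and differ between tissues. Lactate dehydrogenase turns pyruvate into lactate, whereas the pyruvate dehydrogenase complex passes it to the citrate cycle and is switched off by its kinases. The early embryonic heart is known to rely on glucose before it turns to fatty acids after birth, and undifferentiated progenitors are known for glycolysis that runs to lactate.

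Levels are the authors' normalized gene counts, given as the lowest, median and highest of the 6 libraries of a tissue. Differences are log2 fold changes of HT over pSHF from limma on log2(normalized count + 1), fitted to all 14909 genes with a mean of at least 5, with Benjamini-Hochberg adjustment over those genes. Totals of normalized counts were 24136581 to 25035017 in HT and 20552703 to 20786979 in pSHF, and reads rebuilt from the lowest values were 20634491 to 25645378 in HT and 19089469 to 26287147 in pSHF. The tissue labels held against markers: all 10 cardiomyocyte genes were higher in HT, where they made up 2.72 to 3.37% of a library, against 0.149 to 0.321% in pSHF, and all 8 genes of second heart field mesoderm were higher in pSHF. Markers of other cell types also differed. All 11 erythroid genes found were higher in HT (1.66 to 7.12% of a library in HT, 0.351 to 0.695% in pSHF), and all 8 foregut endoderm genes were higher in pSHF (0.00464 to 0.00694% in HT, 0.0235 to 0.0296% in pSHF). Of 8 endothelial genes, 7 were higher in HT (0.0805 to 0.102% in HT, 0.0575 to 0.0656% in pSHF). All 4 neural crest, all 4 hepatic and all 4 macrophage genes were higher in pSHF, with at most 0.033% of a library for any of these lists in either tissue. The part of these cells in the results below was not tested. In whole tissue, a difference in the number of cells of a type cannot be told apart from one in RNA per cell.

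Most of the pathway was higher in HT. Of the 36 genes, all of which passed the filter on low values, 29 were higher in HT and 3 in pSHF at an adjusted p of 0.05 in limma, and 4 passed in neither direction. Across all genes tested, 78.3% passed, 38.3% as higher in HT and 40.0% as higher in pSHF. All 21 members that differed by more than 2-fold were higher in HT, a size and direction reached by 13.4% of all genes, against 13.6% in the other direction. The median log2 fold change was 1.08 over the members and -0.02 over all genes. Every HT library lay above every pSHF library for 26 members (30.1% of all genes), and every pSHF library lay above every HT library for 2 (30.3% of all genes), Pfkfb3 and Pgd. The 36 genes together made up 1.13 to 1.47% of the normalized counts in HT and 0.816 to 0.899% in pSHF. When libraries were instead given equal totals, the median of all genes shifted by -0.25, 28 members were higher in HT and 6 in pSHF. Over all genes the calls then numbered 3917 higher in HT and 8185 in pSHF, against 5708 and 5968 with the deposited scaling. Eno1 then lost its call, and Slc2a3, Slc2a4 and Pkm joined the genes higher in pSHF.

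**Figure D1:**
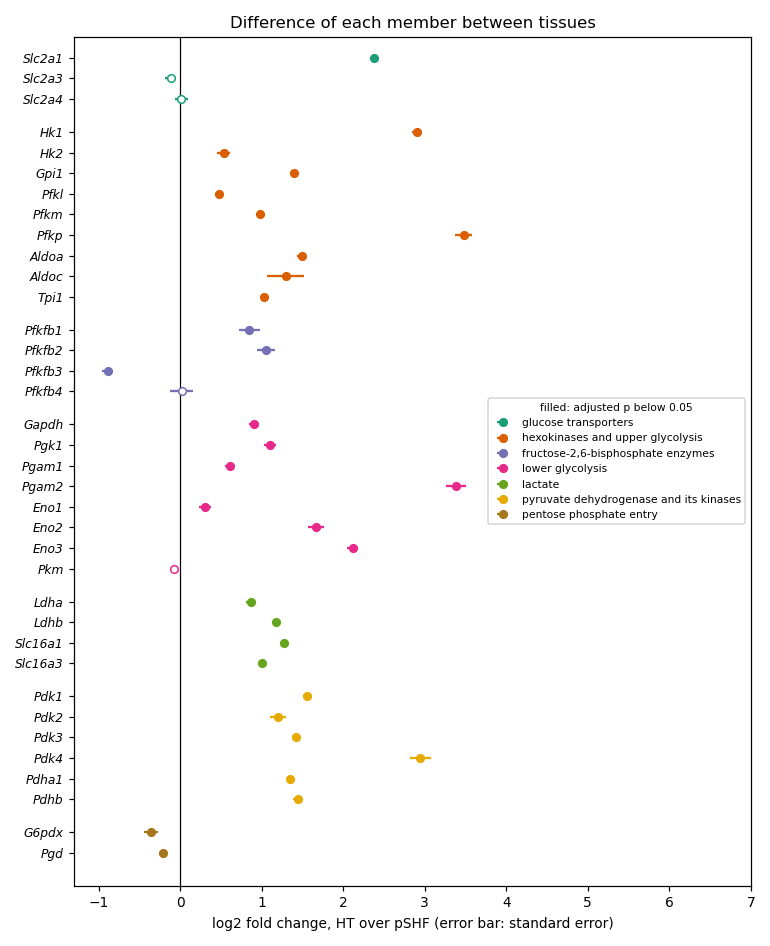
Log2 fold change of HT over pSHF for each of the 36 genes, grouped by role, with the standard error of the limma fit as error bar; filled points passed an adjusted p of 0.05. Pfkp (3.48), Pgam2 (3.39), Pdk4 (2.94) and Hk1 (2.90) lie farthest to the right, and Pfkfb3, G6pdx and Pgd lie left of 0 as filled points.

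Upstream sequence of the members was compared with that of all genes, whatever the direction of the member. Members higher in HT were not compared with the other members, so the shares below say nothing about the difference between tissues. Pkm, which did not pass, and Pfkfb3, which was higher in pSHF, were among the genes with matches. RefSeq start sites (GRCm38.p6) were found for 34 of the 36 genes, with 54 windows of 250 bases before a start. The motif ACGTG, the core of the hypoxia response element, was searched on both strands; CACGTG, the E-box, contains it on each strand and counts as a match. It was present in 19 of the 54 windows (35.2%) of 15 genes, and in 16.6% of 32851 windows of all genes. Windows of 1 gene can overlap, so they are not independent. The motif TNAAGGTCA, to which estrogen-related receptors bind, was in 0 of the 54 windows and in 1.14% of all. At so low a share, 0 among 54 windows is a common outcome and shows no lack of the motif. Shown here are 3 genes higher in HT with matches, the 2 genes with the largest log2 fold changes, which had none, and Pfkfb3, which was higher in pSHF and had matches. Capitals mark ACGTG on either strand, and each sequence reads 5′ to 3′ on the strand of its gene. For Ldha and Pfkfb3, which have 2 start sites each in RefSeq, 1 is shown. The other window of Ldha holds 0 matches and that of Pfkfb3 holds 1. A short stretch of bases after each start was looked for in the GENCODE M21 transcripts of the gene. It was found for the other window of Ldha, but not for the windows of Ldha and Pgam2 shown here, so these starts are uncertain.
Ldha, chr7:46845554-46845803, plus strand: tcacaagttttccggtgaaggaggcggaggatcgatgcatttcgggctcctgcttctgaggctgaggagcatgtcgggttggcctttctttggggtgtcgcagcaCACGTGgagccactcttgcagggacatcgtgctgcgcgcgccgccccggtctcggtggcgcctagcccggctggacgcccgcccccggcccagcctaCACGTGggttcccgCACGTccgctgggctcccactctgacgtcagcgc
Pgk1, chrX:106186850-106187099, plus strand: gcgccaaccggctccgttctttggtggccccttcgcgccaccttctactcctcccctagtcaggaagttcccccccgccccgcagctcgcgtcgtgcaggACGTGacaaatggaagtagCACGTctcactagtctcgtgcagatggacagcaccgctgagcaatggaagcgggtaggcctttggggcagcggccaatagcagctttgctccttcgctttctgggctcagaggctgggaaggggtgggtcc
Slc2a1, chr4:119108495-119108744, plus strand: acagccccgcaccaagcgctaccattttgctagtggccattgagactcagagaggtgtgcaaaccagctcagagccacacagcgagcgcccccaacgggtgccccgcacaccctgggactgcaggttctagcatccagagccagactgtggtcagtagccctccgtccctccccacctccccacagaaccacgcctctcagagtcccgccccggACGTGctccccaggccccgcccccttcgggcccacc
Pfkp, chr13:6648772-6649021, minus strand: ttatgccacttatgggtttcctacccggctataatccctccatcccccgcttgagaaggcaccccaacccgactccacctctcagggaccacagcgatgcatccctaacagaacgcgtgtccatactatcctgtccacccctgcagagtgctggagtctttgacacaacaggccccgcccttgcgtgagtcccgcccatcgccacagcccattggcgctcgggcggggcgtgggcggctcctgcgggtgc
Pgam2, chr11:5803797-5804046, minus strand: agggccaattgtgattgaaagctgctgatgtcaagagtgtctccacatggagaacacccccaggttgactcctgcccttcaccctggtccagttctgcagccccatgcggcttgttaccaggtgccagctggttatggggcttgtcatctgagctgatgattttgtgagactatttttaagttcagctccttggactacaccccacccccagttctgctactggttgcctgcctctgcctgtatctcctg
Pfkfb3, chr2:11502091-11502340, minus strand: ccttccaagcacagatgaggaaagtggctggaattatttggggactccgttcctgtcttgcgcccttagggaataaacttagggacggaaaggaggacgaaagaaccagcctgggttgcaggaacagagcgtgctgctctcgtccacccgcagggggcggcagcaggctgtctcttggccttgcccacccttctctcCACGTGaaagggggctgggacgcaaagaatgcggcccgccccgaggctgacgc
These are matches of letters, and binding was not measured.

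Of the 3 glucose transporters, 1 differed, against 78.3% of all genes. Slc2a1 (GRCm38 chromosome 4, 119108711 to 119137983), which encodes GLUT1, the basal transporter of most embryonic cells and of red cells, had 14947, 16067 and 17304 normalized counts in HT, against 2945, 3095 and 3183 in pSHF. The tissues were far apart, with a log2 fold change of 2.38 (SE 0.039, adjusted p 2.4e-15 in limma). Of the HT libraries, MR28R, with the highest erythroid share (7.12%), had 15265 counts of Slc2a1, and MR25, with the lowest (1.66%), had 16772; the part of red cells in the difference was not tested. Slc2a3, the high-affinity transporter GLUT3, had 2242, 2446 and 2584 in HT and 2294, 2673 and 3147 in pSHF, and the libraries overlapped (log2 fold change -0.12, adjusted p 0.120 in limma, and 0.0349 without pSHF library MR16). Slc2a4, the insulin-responsive GLUT4 of adult muscle, had 564, 698 and 758 in HT and 608, 677 and 718 in pSHF, again with overlap (0.01, adjusted p 0.884 in limma). Scaled to the same library total, Slc2a3 was at -0.36 and Slc2a4 at -0.23, both past the threshold.

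Hexokinase traps glucose in the cell as its phosphate, and the first isozyme carried most of the difference. Hk1 (chromosome 10, 62268855 to 62379908), the isozyme bound to mitochondria in most tissues, had 14047, 14930 and 15428 in HT, against 1690, 1970 and 2323 in pSHF. Its log2 fold change was 2.90 (SE 0.059, adjusted p 8.0e-15 in limma). Hk2, the isozyme of insulin-sensitive muscle, had 2656, 3428 and 3925 in HT and 2060, 2271 and 2681 in pSHF. Its highest pSHF library lay just above its lowest HT library, and the log2 fold change was 0.53 (adjusted p 2.8e-05 in limma). Per kb of transcript, Hk1 made up 86.3 ± 1.23% of the pair in HT and 55.1 ± 4.35% in pSHF (SD, n = 6 each).

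All other enzymes of upper glycolysis were also higher in HT, against 38.3% of all genes. Gpi1, which converts glucose 6-phosphate to fructose 6-phosphate, had 16988, 19931 and 21244 in HT, against 7160, 7454 and 7612 in pSHF (log2 fold change 1.40). The phosphofructokinase genes, whose enzyme makes the committed step, differed by very unequal amounts. Pfkp (chromosome 13, 6579768 to 6648777), the platelet-type subunit, had 6410, 7908 and 8567 in HT, against 522, 675 and 838 in pSHF. At 3.48 it had the largest log2 fold change of all members (SE 0.11, adjusted p 3.2e-13 in limma). Pfkm, the muscle-type subunit, stood at 0.97 and Pfkl, the liver-type subunit, at 0.47, both without overlap between tissues. Pfkl was still the most abundant of the 3 per kb in both tissues, with 43.3 ± 1.24% of the family in HT and 68.5 ± 2.26% in pSHF, and Pfkp made up 34.7 ± 1.65% in HT and 6.9 ± 1.21% in pSHF (SD, n = 6 each). Aldoa, the aldolase of muscle, had 34277, 41228 and 44640 in HT, against 13943, 14414 and 14650 in pSHF (1.49). Aldoc, the brain-type aldolase, was scarce, with 127, 204 and 268 in HT, against 57.3, 74.8 and 158 in pSHF, and overlapped between tissues (1.29, adjusted p 9.7e-05 in limma). Tpi1, which balances the triose phosphates, had 18357, 21442 and 23097 in HT, against 10009, 10405 and 11402 in pSHF (1.03).

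**Figure D2:**
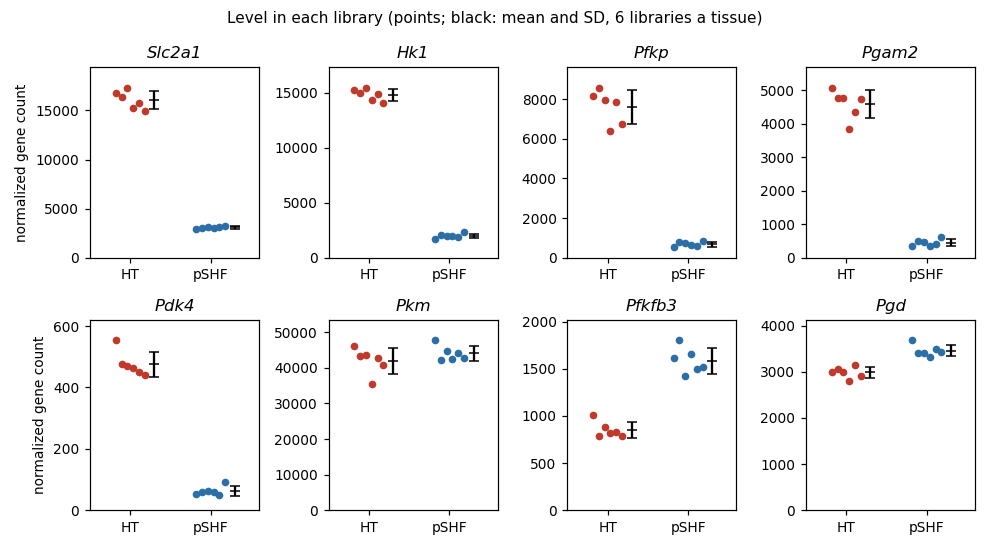
Normalized gene counts of 8 members in each of the 6 HT (left, red) and 6 pSHF (right, blue) libraries, with the mean and SD in black; the axes start at 0. Slc2a1, Hk1, Pfkp, Pgam2 and Pdk4 are higher in every HT library, Pkm overlaps, and Pfkfb3 and Pgd are higher in every pSHF library.

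The Pfkfb genes encode enzymes that make and remove fructose 2,6-bisphosphate, the strongest activator of phosphofructokinase, and they went both ways. Pfkfb2, the heart-type gene, had 455, 525 and 679 in HT, against 220, 244 and 313 in pSHF (log2 fold change 1.05, adjusted p 5.3e-07 in limma), and Pfkfb1, the liver-type gene, stood at 0.85. Pfkfb3 (chromosome 2, 11471433 to 11554077), the form with the greatest bias toward synthesis and known to be induced by hypoxia and in growing cells, had 784, 829 and 1015 in HT, against 1421, 1568 and 1804 in pSHF. It was the member with the most negative log2 fold change, -0.89 (SE 0.069, adjusted p 1.0e-08 in limma). Pfkfb4 had 186, 241 and 399 in HT and 239, 249.7 and 256 in pSHF and did not pass (0.02, adjusted p 0.905 in limma). Per kb, Pfkfb3 made up 34.9 ± 5.39% of the family in HT and 61.4 ± 2.83% in pSHF, while the family total was 534 ± 61.3 normalized counts per kb in HT and 557 ± 40 in pSHF (SD, n = 6 each). Pfkfb4, Pfkfb1 and Pfkfb2 were all highest in HT library MR28R, which had the highest erythroid share. Pfkfb4 had 399 counts there and 186 in MR25, the HT library with the lowest share, and the part of blood cells in these values was not tested. Without MR28R, Pfkfb4 stood at -0.11.

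In lower glycolysis 7 of 8 genes were higher in HT, against 38.3% of all genes, and the muscle isozymes differed most. Pgam2 (chromosome 11, 5801640 to 5803733), the muscle phosphoglycerate mutase, had 3859, 4751 and 5074 in HT, against 342, 429 and 618 in pSHF. Its log2 fold change was 3.39 (SE 0.12, adjusted p 1.4e-12 in limma). Its widely expressed partner Pgam1 stood at 0.61, without overlap. Eno3, the muscle enolase, had 4685, 5571 and 5884 in HT, against 1106, 1262 and 1381 in pSHF (2.11). Eno2, the neuron-type enolase, had 700.1, 758 and 947 in HT, against 213, 239 and 310.4 in pSHF (1.66). Eno1, the common enolase, had 10916, 13658 and 14774 in HT and 9852, 10672 and 12323 in pSHF, with overlap and a small log2 fold change (0.30, adjusted p 0.00134 in limma), which was 0.06 with equal library totals (adjusted p 0.513). Per kb, Pgam2 was 33.2 ± 1.32% of its pair in HT and 6.89 ± 1.61% in pSHF, and Eno3 was 33.7 ± 0.911% of its family in HT and 13 ± 1.42% in pSHF (SD, n = 6 each).

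The remaining steps of lower glycolysis are run by genes with 1 main form. Pgk1, which makes the first ATP of the pathway, had 11131, 14474 and 16258 in HT, against 5986, 6635 and 7175 in pSHF (1.10). Gapdh, often used as a reference gene for expression, had 7371, 9138 and 9852 in HT, against 4408, 4657 and 5308 in pSHF, without overlap (log2 fold change 0.91, adjusted p 4.7e-09 in limma). Pkm, the pyruvate kinase gene, had 35417, 43091 and 46156 in HT and 42306, 43504 and 47752 in pSHF, and its difference did not pass (-0.07, adjusted p 0.260 in limma); with equal library totals it was -0.32 and passed. The counts are per gene, so the M1 and M2 splice forms of Pkm cannot be told apart. Several of these genes have near-identical copies elsewhere in the genome. Of the 50-base windows of the main transcript, 82.5% for Gapdh, 72.2% for Eno1, 68% for Pgk1, 41.5% for Pgam1 and 30.5% for Pkm also occurred exactly in transcripts of other loci (GENCODE M21), so their levels are uncertain. The share was 30.3% for Pdhb, 27% for Ldhb, 19.6% for Gpi1, 17.1% for Ldha and 13.9% for Aldoa. For Slc2a1, Hk1, Pfkp, Pgam2 and Eno3 it was 0%. Isozyme shares and ratios that set such unlike genes against each other, as Pgam2 and Pgam1 or Eno3 and Eno1, are therefore uncertain too. Exons of 8 members also overlap a gene on the other strand by at least 100 bases, among them Pfkp (748 bases), Gpi1 (741), Pdha1 (603) and G6pdx (418), and reads of such a pair may not have been told apart, since the kit and the protocol differ on whether strand was kept.

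**Figure D3:**
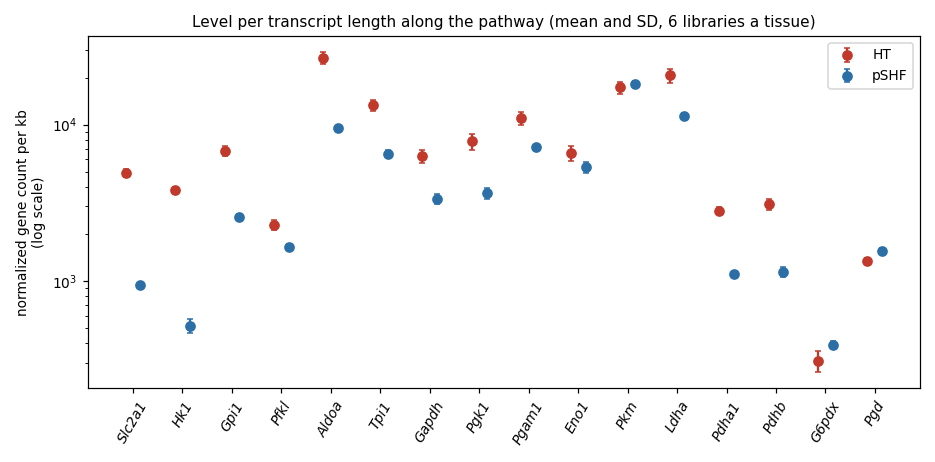
Mean normalized gene count per kb of transcript with SD (6 libraries a tissue, log axis) for members along the path from glucose uptake to pyruvate dehydrogenase and the pentose phosphate branch, HT left (red) and pSHF right (blue). In HT Slc2a1 and Hk1 are at 4930 and 3844 per kb, against 945 and 516 in pSHF, whereas Pkm is at 17279 in HT and 18122 in pSHF.

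Per length, the gene with the highest level differed between the tissues. The order of genes within a tissue is uncertain, because they differ in the share of windows that also occur in other transcripts. That share was 82.5% for Gapdh and 68% for Pgk1, against 30.5% for Pkm and 13.9% for Aldoa, and no level was corrected for it. In HT, Aldoa was highest (26776 ± 2318 normalized counts per kb), followed by Ldha (20694 ± 2146) and Pkm (17279 ± 1509), as means ± SD with n = 6. In pSHF, Pkm was highest (18122 ± 840.2), followed by Ldha (11319 ± 486) and Aldoa (9518 ± 167). Hk1 and Hk2 together had 4454 ± 213 per kb in HT and 936 ± 41.6 in pSHF. The 3 phosphofructokinase genes together had 5283 ± 408 per kb in HT and 2405 ± 54.8 in pSHF.

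Genes of lactate handling were all higher in HT, against 38.3% of all genes. Ldha, whose subunit favours lactate formation, had 30086, 37423 and 40171 in HT, against 19215, 19717 and 21626 in pSHF (log2 fold change 0.86, adjusted p 4.8e-09 in limma). Ldhb, the subunit common in adult heart, had 5504, 6158 and 6769 in HT, against 2538, 2721 and 2856 in pSHF (1.18). The make-up of the pair differed little: Ldhb was 18.6 ± 1.09% of it per kb in HT and 15.6 ± 0.765% in pSHF (SD, n = 6 each), without overlap. Slc16a1 (MCT1), which carries lactate in either direction, had 4063, 4707 and 4909 in HT, against 1877, 1928 and 1954 in pSHF (1.27). Slc16a3 (MCT4), known as a lactate exporter, had 5253, 5926 and 6312 in HT, against 2796, 2921 and 3043 in pSHF (1.00).

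The 6 members at the entry to the mitochondrion, both the enzyme and its inhibitors, were all higher in HT, against 38.3% of all genes. Pdha1 and Pdhb, the E1 subunits of pyruvate dehydrogenase, had 7286, 8184 and 8387, and 4070, 4744 and 5065 in HT, against 3012, 3139 and 3296, and 1610.3, 1720.2 and 1913 in pSHF, with log2 fold changes of 1.34 and 1.44. The kinases that inactivate this subunit went the same way. Pdk4, the kinase known to rise with fasting and fatty acid use, had 441, 468 and 554 in HT, against 48.6, 58.5 and 91.5 in pSHF. Its log2 fold change was 2.94 (SE 0.13, adjusted p 9.9e-12 in limma). Pdk1, a known target of hypoxia-inducible factor, had 3469, 3953 and 4562 in HT, against 1261, 1359 and 1504 in pSHF (1.56). Pdk3 had 2850.2, 3257 and 3368 in HT, against 1130, 1176 and 1316 in pSHF (1.42), and Pdk2 had 681, 806 and 984 in HT, against 275, 373 and 413 in pSHF (1.20). Despite its difference, Pdk4 was the scarcest of the 4 per kb, with 4.88 ± 0.381% of the family in HT and 1.77 ± 0.435% in pSHF, and Pdk3 the most abundant, with 54.1 ± 1.69% in HT and 56.1 ± 2.14% in pSHF (SD, n = 6 each). Related genes outside the members, chosen afterwards, went both ways. Dlat (1.46), Pdhx (0.98), Pdpr (0.92) and Dld (0.81) were higher in HT. Pdp1 was higher in pSHF (-0.30, adjusted p 0.000505 in limma), and Pdp2 did not pass (-0.11, adjusted p 0.194 in limma).

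The 2 genes that open the pentose phosphate branch, which yields NADPH and ribose for growth, were lower in HT, as were 40.0% of all genes. G6pdx, glucose-6-phosphate dehydrogenase, had 680, 810.1 and 993 in HT, against 972, 1030.1 and 1136 in pSHF (log2 fold change -0.36, adjusted p 0.00122 in limma). The libraries overlapped, because MR28R reached 993. Pgd, 6-phosphogluconate dehydrogenase, had 2798, 3002 and 3142 in HT, against 3330, 3426 and 3684 in pSHF, without overlap (-0.21, adjusted p 4.4e-05 in limma).

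Isozymes of a family did not move by equal amounts. Within each library the log2 ratio of 2 isozymes was taken, which does not depend on how libraries are scaled, and 15 such ratios were compared between tissues with an exact two-sided permutation test over the 12 libraries. Tissues did not overlap in 12 of the 15, each with the smallest exact permutation p that 6 against 6 libraries allow (0.00216, and 0.00271 adjusted over the 15 ratios). Ratios of other gene pairs were not computed, so this number cannot be called particular to isozymes. Of all single genes, 30.1% had every HT library above every pSHF library and 30.3% the reverse. Several of the ratios also share a gene. The largest differences were those of Pfkp over Pfkl (-0.17 ± 0.10 in HT and -3.18 ± 0.30 in pSHF, a difference of 3.01) and Pgam2 over Pgam1 (-2.09 ± 0.087 in HT and -4.86 ± 0.35 in pSHF, a difference of 2.77), as means ± SD with n = 6. Ratios that were lower in HT were Slc2a3 over Slc2a1 (-2.50), Hk2 over Hk1 (-2.37), Slc2a4 over Slc2a1 (-2.37) and Slc16a3 over Slc16a1 (-0.26). The ratios of Pdk2 and Pdk3 to Pdk1 and of Aldoc to Aldoa overlapped, with exact permutation p of 0.0541, 0.102 and 0.487 and differences of -0.36, -0.14 and -0.19. Without HT library MR28R, the difference of Pdk2 over Pdk1 was -0.46 and its exact permutation p was 0.0195; without pSHF library MR15 or MR16 that p was 0.026 or 0.0476, and without MR16 the p of Pdk3 over Pdk1 was 0.0238.

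**Figure D4:**
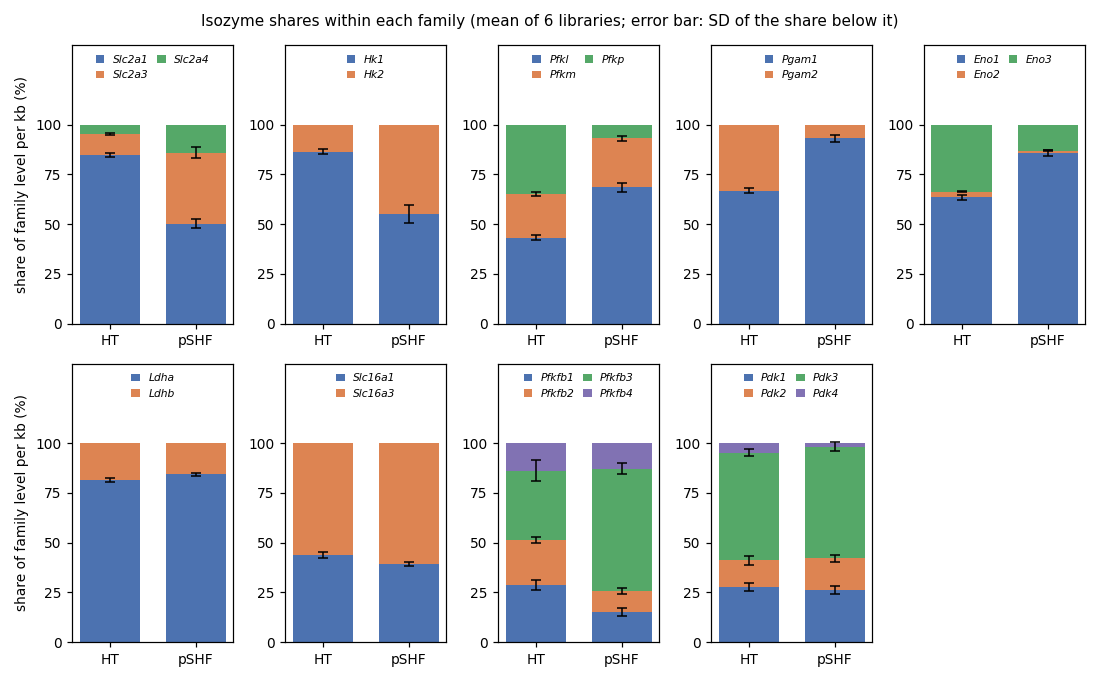
Share of each isozyme in the summed level per kb of its family, in percent, for 9 families in HT (left bar) and pSHF (right bar); bars are means of 6 libraries and the error bar at the top of a segment is the SD of that segment. Hk1, Pfkp, Pgam2 and Eno3 take larger shares in HT, the lactate dehydrogenase shares differ between tissues by a few percentage points, and Pdk4 takes 4.88% of its family in HT and 1.77% in pSHF. Shares that involve Pgam1 or Eno1 are uncertain, because many of their 50-base windows also occur in other transcripts.

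The members did not vary alike among HT libraries. MR28R was the lowest HT library for 22 of the 36 genes and the highest for 6 of them, Slc2a4, Pfkfb1, Pfkfb2, Pfkfb4, Pdk2 and G6pdx, and MR25 was the highest for 20. These libraries had the highest (7.12%) and the lowest (1.66%) erythroid share in HT. Such standings were not counted over all genes, so they cannot be called particular to the members. Aldoa had 34277 counts in MR28R and 44640 in MR25, and Pgk1 had 11131 in MR28R and 16258 in MR25, while G6pdx had 993 in MR28R and 734 in MR25. The share of cardiomyocyte genes was also lowest in MR28R (2.72%) and highest in MR25 (3.37%). The part of cell content in these differences was not tested. Without MR28R and MR30, the 2 HT libraries with the highest erythroid share, a choice made after seeing the data, 29 members were higher in HT and 3 in pSHF, the same numbers as with all libraries. Over all genes the calls changed little too, to 5584 higher in HT and 5887 in pSHF, against 5708 and 5968 with all libraries.

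**Figure D5:**
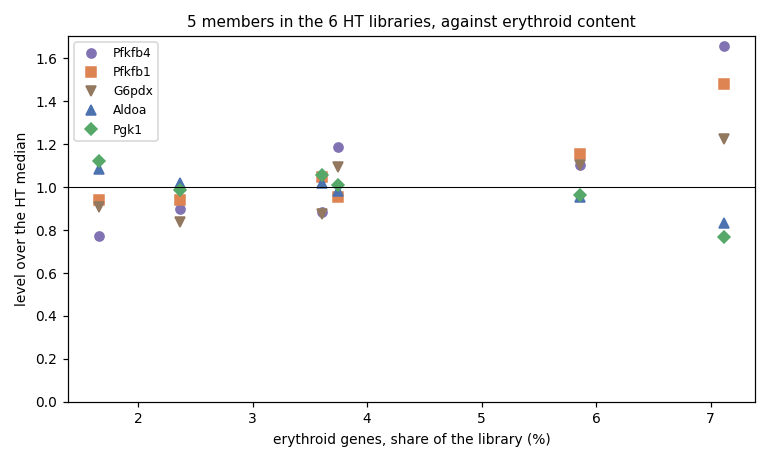
Level of 5 members in the 6 HT libraries, each divided by the gene's HT median, against the share of erythroid genes in the library in percent. In the library with 7.12% erythroid counts Pfkfb4, Pfkfb1 and G6pdx are at their highest and Aldoa and Pgk1 at their lowest. The 5 genes are taken from those that are highest or lowest in that library, so their place there follows from the choice.

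Other genes of sugar and pyruvate use shared the direction of most members. Of 40 tested, 26 were higher in HT and 9 in pSHF, with a median log2 fold change of 0.91, beside shares over all genes of 38.3% and 40.0%. With equal library totals the numbers were 24 and 12, against 3917 and 8185 over all genes. Pygm, the glycogen phosphorylase of muscle, had 6780 ± 682 in HT and 474 ± 73.2 in pSHF (3.84), and the phosphoglucomutase row named Pgm2 had 5512 ± 625 in HT and 1301 ± 118 in pSHF (2.08). The row named Pgm1 stood at -0.87; the annotation gives these 2 identifiers the opposite names. Tkt, transketolase of the pentose phosphate pathway, had 3962 ± 585 in HT and 6570 ± 313 in pSHF (-0.74). That pathway did not go 1 way, as Taldo1 was higher in HT (0.55, adjusted p 7.5e-08 in limma). Rpe did not pass (-0.07, adjusted p 0.164 in limma). Besides Pgm1 and Tkt, the genes of this list higher in pSHF were Hk3 (-2.23), Rpia (-0.42), Adpgk (-0.36), Pgm2l1 (-0.33), Pdp1 (-0.30), Pck2 (-0.14) and Pgls (-0.12). The genes named next were chosen after their values were seen, only from those higher in HT. They include those of the pyruvate carrier, Mpc1 (0.91) and Mpc2 (1.08), the glycogen synthase gene Gys1 (1.46) and Bsg (1.04), the partner of lactate transporters. Bpgm, the red-cell enzyme for 2,3-bisphosphoglycerate and likewise chosen afterwards, had 2576 ± 1180.2 in HT and 843 ± 110.3 in pSHF.

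Regulators and genes of the hypoxia response were split. Of 33 tested, 18 were higher in HT and 14 in pSHF, with a median of 0.25, beside shares over all genes of 38.3% for HT and 40.0% for pSHF. With equal library totals 13 were higher in HT and 15 in pSHF. All genes moved the same way in that setting, to 3917 higher in HT and 8185 in pSHF of 14925 tested, so the turn is not particular to the regulators. Ppargc1a, a coactivator of mitochondrial genes, had 1692 ± 73 in HT and 190 ± 46 in pSHF (3.19), and its partner Esrrg, an estrogen-related receptor, had 1953 ± 166 in HT and 260 ± 33.6 in pSHF (2.91). Arnt2 had 424 ± 61.7 in HT and 2103 ± 41.9 in pSHF (-2.32). Hif1a, the hypoxia-inducible factor, chosen after its values were seen, was at 1.09. All values are means ± SD with n = 6.

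A second deposited table holds raw counts per gene symbol, with 233865 to 340434 counts a library, about a hundredth of the rebuilt reads. The symbols of 35 members were matched in it, and 17 passed edgeR's filter. In edgeR's quasi-likelihood test 13 of these were higher in HT and 1 in pSHF, against 25.2% and 23.1% of 3370 genes tested, of which 48.3% passed. More than 2-fold differences were found for 6 members higher in HT (12.2% of all genes) and 0 higher in pSHF (6.50% of all genes). The gene higher in pSHF was Pgam2, with 16, 26 and 34 counts in HT and 33, 43.5 and 53 in pSHF (log2 fold change -0.50, adjusted p 0.0152 in edgeR), opposite to the normalized counts; without HT library MR25, 0 members were higher in pSHF. Pfkp, with 173, 223 and 256 counts in HT and 172, 233 and 273 in pSHF, did not pass (0.18, adjusted p 0.109 in edgeR). Pfkp shares 748 exon bases with Pitrm1 on the other strand, whereas no gene overlaps the exons of Pgam2 in the annotation. Genes were unequally represented: the counts of Pfkp over all libraries came to 5.34% of its normalized counts, those of Pgam2 to 1.38% and those of Hk1 to 0.51%, while Gapdh, Pgk1, Pgam1 and Eno1 had 31, 19, 11 and 9 counts in total. The labels name no strand setting for these counts, and whether they were taken from the strand opposite to the genes was not tested, so what they measure is uncertain.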

How the data were processed

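Poly-A RNA of 6 HT and 6 pSHF samples was made into libraries with a TruSeq version 2 kit, per the labels' protocols. STAR, DESeq2 and the build mm10 are named in the submitters' processing notes; their versions, the annotation and the counter were details not given in the sources used here. One deposited table holds a signal for each library (termed normalized gene counts), beside the authors' log2 fold change, p-value and adjusted p-value. The other deposited table holds raw counts per gene symbol. If the most frequent lowest value of a library is taken as 1 read, 46.5 to 49.4% of the deposited signal under 20.5 reads came out whole within 0.01 reads, so no count model was used on it and rebuilt reads are approximate. Names of 27 genes that had become dates were restored from their identifiers. Columns were tied to tissues by name, not to replicate numbers.

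The normalized counts were tested with limma 3.58.1 (trend, pseudocount 1, mean of at least 5), and the raw counts with edgeR 4.0.16, with DESeq2 1.42.0 as an alternative (R 4.3.3). The members, lists and tests were chosen with earlier results of these data known. All members are named; from the lists of other sugar genes and of regulators, the passing genes with the 2 highest and the 2 lowest log2 fold changes and at least 50 normalized counts in the higher tissue are named, except 1 gene that is not reported here, and further genes are marked; the same rule covered the cell type marker lists, which are given as counts and sums only. Lengths are those of 1 main transcript a gene (APPRIS class, then length) in GENCODE M21 (GRCm38, the same build as mm10). Fits were tested on simulated data.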

Additional observations from a re-analysis of the deposited data

Results flagged for a closer look

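Among the 102 sets of 6 libraries examined (36 genes and 15 ratios in each tissue), 5 held a library far from the others by Dixon's test at 95%, which chance alone flags in about 1 of 20 sets. Aldoc in pSHF library MR14 stood at 158 normalized counts, with the others at 57.3 to 89. Pgam1 in pSHF library MR13 stood at 13605, with the others at 12403 to 12768. Slc16a1 in HT library MR30 stood at 4063, with the others at 4629 to 4909. Pdk4 stood apart in both tissues, at 554 in HT library MR25 (the others at 441 to 475) and at 91.5 in pSHF library MR18 (the others at 48.6 to 61.8). The highest Pdk4 value of pSHF remained far below the lowest of HT.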

How the results depend on the processing

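The counts of members higher in HT ranged from 26 to 29 over all alternatives to the limma fit. Those higher in pSHF were 6 with equal library totals, with or without the erythroid list, and 1 past a 1.5-fold difference. Leaving out each library gave 29 members higher in HT and 3 to 4 in pSHF. In the same fits, all genes higher in HT numbered 5582 to 5669 and those higher in pSHF 5820 to 5968, the other sugar genes 24 to 26 and 8 to 9, the regulators 18 and 13 to 14 (13 and 15 with equal totals), and the ratios without overlap 12. Among the named genes and ratios, 2 genes that had not passed changed sign. Slc2a4 stood at -0.23 with equal totals, -0.18 with equal totals without the erythroid list, -0.038 without the 2 HT libraries richest in erythroid counts, and from -0.0221 to 0.063 in the fits without 1 library, of which 5 were below 0. Pfkfb4 stood at -0.23, -0.17 and -0.16 in the first 3 of these and from -0.11 to 0.107 in the fits without 1 library, of which 2 were below 0. In the raw table, 1497 genes were higher in HT with no filter and 1392 in pSHF, among them 2 members higher in pSHF; DESeq2 called 0 members higher in pSHF. Without each library, 833 to 911 genes and 13 to 17 members were higher in HT and 748 to 809 genes and 0 to 1 member in pSHF. The cause of these changes was not tested. No paired analysis was possible because the columns carry library codes and no replicate numbers.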
